A study of Mus musculus with 4 samples.

Results

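Transforming growth factor-β (TGF-β) signalling was followed through 10 mouse genes in scRNA-Seq of fracture callus and trabecular bone, with and without glucocorticoid (GC). The genes were chosen by symbol, and all 10 were found among the 32285 genes of each library. They comprise the ligands Tgfb1, Tgfb2 and Tgfb3, the latency protein gene Ltbp1, the receptors Tgfbr1, Tgfbr2 and Tgfbr3, and the target genes Tgfbi, Ccn2 and Postn. There were 4 libraries, 1 for each combination of tissue (callus or trabecular bone) and treatment (control or GC). The mice were male C57BL/6J animals of 20 weeks. The GC was prednisolone at 6.25 mg/kg/d, the control was placebo, and tissue was taken at week 2. The sample labels describe a subcutaneous slow-release pellet for every library, whereas by the methods of the study mice with a fracture were injected every day and only those of the bone-loss model carried a pellet, so the route in the callus libraries is uncertain. The number of mice pooled in a library was not given in the sources used here. With 1 library per condition there is no measure of the spread between mice, and no difference below was tested. All intervals are 95% intervals for counting error only.

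TGF-β ligands are secreted bound to their own propeptide in a latent complex. Latent TGF-β binding proteins, of which Ltbp1 encodes one, tether that complex to the extracellular matrix. Released ligand is bound by the type II receptor, encoded by Tgfbr2, which phosphorylates the type I receptor, encoded by Tgfbr1, and the type I receptor passes the signal to SMAD transcription factors. Betaglycan, the product of Tgfbr3, is a co-receptor that presents ligand, TGF-β2 in particular. Ccn2 encodes connective tissue growth factor, Postn the matrix protein periostin, and Tgfbi a secreted adhesion protein that was named for its induction by TGF-β. In bone, matrix-bound TGF-β links resorption to formation, and in a healing fracture it acts on cartilage and on the periosteum.

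In the GRCm38 build the 3 ligand genes lie apart. Tgfb1 spans chr7:25687002-25705077 on the plus strand, Tgfb2 spans chr1:186622792-186705989 on the minus strand, and Tgfb3 spans chr12:86056745-86079041 on the minus strand. Ltbp1 spans chr17:75005568-75392512 on the plus strand. Of the receptor genes, Tgfbr1 spans chr4:47353222-47414931 (plus), Tgfbr2 chr9:116084293-116175360 (minus) and Tgfbr3 chr5:107106570-107289629 (minus). Of the target genes, Tgfbi spans chr13:56609523-56639562, Ccn2 chr10:24595442-24598683 and Postn chr3:54361109-54391037, each on the plus strand.

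The 250 bases upstream of the annotated start were read for 7 of the 10 genes from RefSeq (GRCm38.p6). The windows of 4 genes are shown because the values below turn on them: Postn and Tgfbr1, the target and the receptor that were higher with GC in the most callus classes tested, and the ligands Tgfb2 and Tgfb1, which were read from different cells. Capitals mark a TATA box (TATAAA, on the given strand) or a SMAD binding element (CAGAC, or GTCTG on the other strand). Each sequence runs 5′ to 3′ on the strand of its gene.
Postn, chr3:54360857-54361106 (+): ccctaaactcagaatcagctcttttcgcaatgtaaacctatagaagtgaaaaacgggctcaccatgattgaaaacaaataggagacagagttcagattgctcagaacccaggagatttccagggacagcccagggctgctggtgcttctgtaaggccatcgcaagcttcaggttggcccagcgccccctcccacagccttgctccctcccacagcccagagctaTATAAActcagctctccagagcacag
Tgfb2, chr1:186705990-186706239 (-): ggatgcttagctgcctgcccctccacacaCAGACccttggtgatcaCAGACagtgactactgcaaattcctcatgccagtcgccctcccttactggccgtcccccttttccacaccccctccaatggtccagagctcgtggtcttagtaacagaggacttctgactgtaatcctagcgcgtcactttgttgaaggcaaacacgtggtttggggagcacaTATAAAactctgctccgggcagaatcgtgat
Tgfb1, chr7:25686752-25687001 (+): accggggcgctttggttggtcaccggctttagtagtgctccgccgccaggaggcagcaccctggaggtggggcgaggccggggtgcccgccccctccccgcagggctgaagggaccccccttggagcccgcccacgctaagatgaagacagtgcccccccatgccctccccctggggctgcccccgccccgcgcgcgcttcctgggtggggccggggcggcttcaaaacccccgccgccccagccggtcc
Tgfbr1, chr4:47352972-47353221 (+): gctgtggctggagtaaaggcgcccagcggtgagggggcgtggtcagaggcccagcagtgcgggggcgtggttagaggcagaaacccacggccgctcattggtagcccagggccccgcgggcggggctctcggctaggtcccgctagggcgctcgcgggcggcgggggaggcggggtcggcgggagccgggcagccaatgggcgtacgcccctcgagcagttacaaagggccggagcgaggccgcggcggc

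The TATA box began 26 bases before the start of Postn and 31 bases before that of Tgfb2, and 7.592% of 32851 windows of this length held those letters. The Tgfb2 window also held CAGAC at 221 and at 204 bases before the start, letters that 42.19% of windows held on either strand. The windows of Tgfb1 and Tgfbr1 shown here held neither. Postn and Tgfbr1 each had another annotated start whose window held CAGAC, at 191 and 203 bases before it. The short glucocorticoid receptor motif (AGAACA, or TGTTCT on the other strand), present in 16.08% of windows, and the TEAD site (GGAATG, or CATTCC), present in 12.64%, were found in no window read for the 7 genes. These matches describe letters only.

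The callus libraries held 95852254 UMIs (unique molecular identifiers, 1 for each captured transcript) in control and 64388215 in GC, and those of trabecular bone 41239842 and 45876714. After filtering, 6705, 6890, 3803 and 4601 cells were kept in that order, with median depths of 4219, 3268.5, 6325 and 5623 UMIs. The GC callus table was deposited with 7762 barcodes, none under 500 UMIs, whereas the other 3 held all 6794880 possible barcodes and cells were called here. The UMI total of GC callus thus covers those barcodes only, whereas the other totals include barcodes not called as cells. Pairs of libraries shared 7 to 15 barcodes among those called as cells, before the filters. Cells were clustered without the 10 genes and named from marker lists, so that each class name below means cells like that type (chondrocyte-like and so on). In callus, 16 classes with at least 15 cells in each library were compared. Several clusters stood apart by library: the chondrocyte clusters 10 and 13 held 9 and 360 and 11 and 234 control and GC cells at median depths of 2512 and 1825 UMIs, and 807 GC cells against 60 control cells stayed unnamed. The leading genes of cluster 10 were mostly fibrillar collagen and matrix genes (Col1a1, Col1a2, Dcn, Col12a1) that stromal cells share, with Col9a1 as its cartilage marker. Over clusters with at least 10% of their cells from each library, which leaves out chondrocyte clusters 10, 13 and 28, the 10 genes kept their direction in chondrocytes. Ccn2 and Tgfb2 moved most, to log2 differences of 0.012 and 0.14 from 0.15 and 0.24. In trabecular bone, 9 classes were compared, no cluster was named osteoblast, chondrocyte or endothelial, and no cell of the GC library was named B cell against 254 in control. An unnamed cluster of 59 control and 16 GC cells was closest to B cells, with Cd79a, Ebf1 and Ighd among its leading genes.

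**Figure D1:**
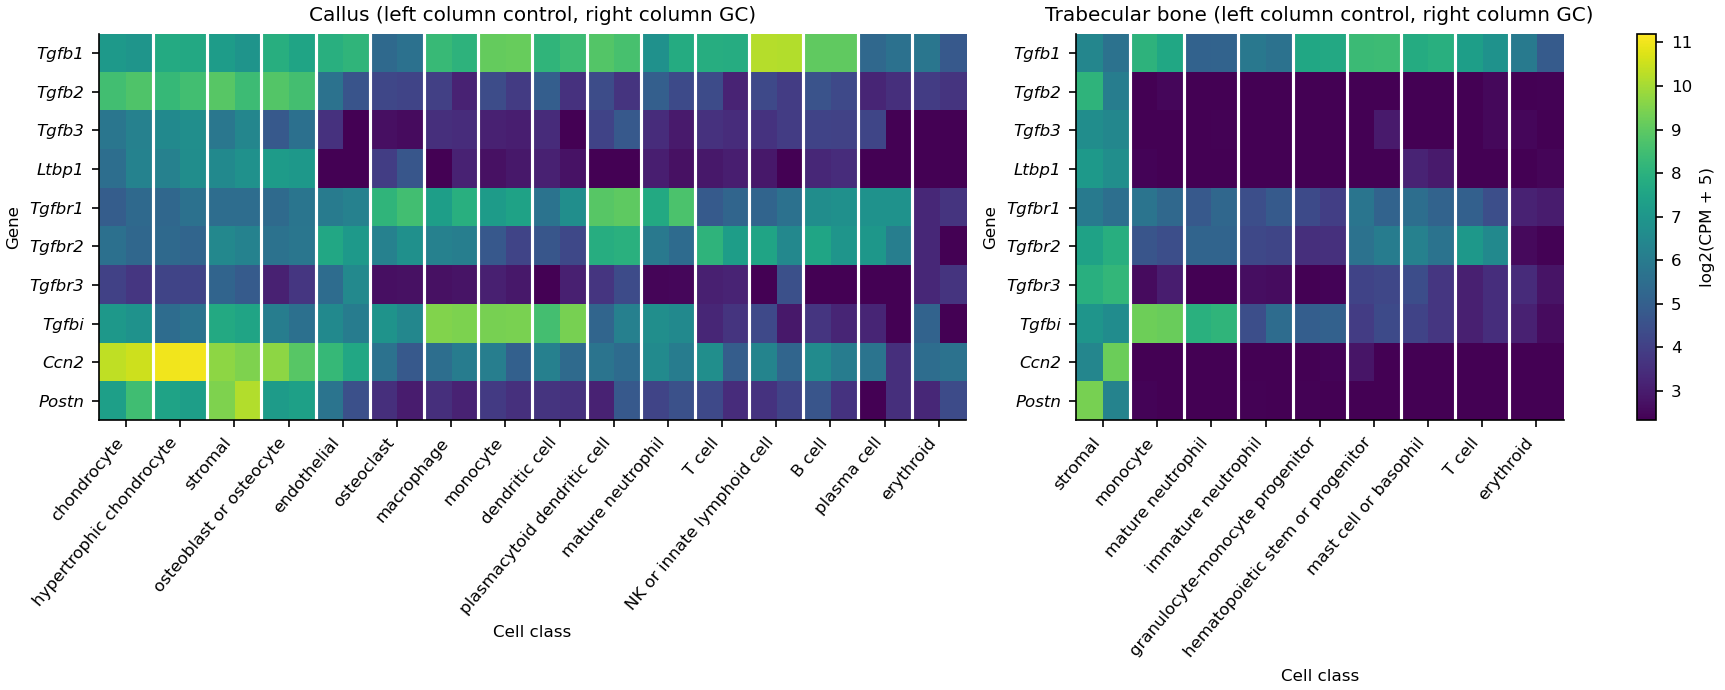
Level of each gene in each cell class of callus (16 classes) and trabecular bone (9 classes), as log2 of CPM + 5, where CPM is the UMIs of the gene over all UMIs of the class, scaled to counts per 1e6; in each pair of columns the left is control and the right is GC. Lighter colour means a higher level. Ccn2 was highest in the hypertrophic class, at 2076 and 2130 CPM, and Postn in the stromal class of callus, at 703 and 1144 CPM.

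Levels are given as CPM, the UMIs of a gene over all UMIs of the class scaled to counts per 1e6, and compare classes for 1 gene, not genes with each other. In callus, the ligands were read from different cells. Tgfb1 was highest in the NK or innate lymphoid class, at 1169 CPM in control (1067 to 1277) and 1165 CPM in GC (1062 to 1274). Monocytes and B cells came next in the order of classes over both libraries, at 550 and 523 CPM with overlapping intervals, and osteoclasts were at 36.2 CPM in control and 44.9 CPM in GC. Tgfb2 belonged to the skeletal classes instead: osteoblasts or osteocytes and stromal cells led at 413 and 411 CPM, whose intervals overlapped, followed by chondrocytes at 380 CPM and hypertrophic chondrocytes at 330 CPM, with the next class, endothelial cells, at 33.4 CPM. Tgfb3 was highest in hypertrophic chondrocytes at 93.1 CPM, then in stromal cells at 63.7 CPM, chondrocytes at 56.8 CPM and osteoblasts or osteocytes at 31.7 CPM.

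Over the 10 genes and 16 callus classes, 87 of 160 pairs of gene and class held at least 50 UMIs over both libraries and were compared. A pair was called when GC and control differed by 2-fold or more on log2(CPM + 5). Of the 87 pairs, 6 were called (6.90%), 3 higher and 3 lower in GC, against 2.68% of 82507 pairs over all genes. The median log2 difference was -0.01, and the counting interval left out 0 in 57 pairs.

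The called pairs were Postn in chondrocytes, Tgfbr1 in dendritic cells, Tgfbr3 in endothelial cells, Tgfbr2 in the NK or innate lymphoid class, and Ccn2 in T cells and monocytes. By class, 1 of 10 genes was called in chondrocytes (background over all genes in that class 0.876%), 1 of 4 in dendritic cells (5.61%), 1 of 6 in endothelial cells (3.5%), 1 of 2 in the NK or innate lymphoid class (3.22%), 1 of 4 in T cells (2.89%) and 1 of 6 in monocytes (4.24%). None was called of 10 in hypertrophic chondrocytes (0.679%), 10 in stromal cells (0.695%), 9 in osteoblasts or osteocytes (1.76%), 7 in osteoclasts (1.88%), 7 in mature neutrophils (6.75%), 5 in macrophages (4.04%), 4 in B cells (4.85%) or 3 in plasmacytoid dendritic cells (6.32%). In plasma cells and erythroid cells no gene reached 50 UMIs. The median over all genes itself lay at -0.16 in B cells and in T cells, so that changes there are to be read against that shift.

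**Figure D2:**
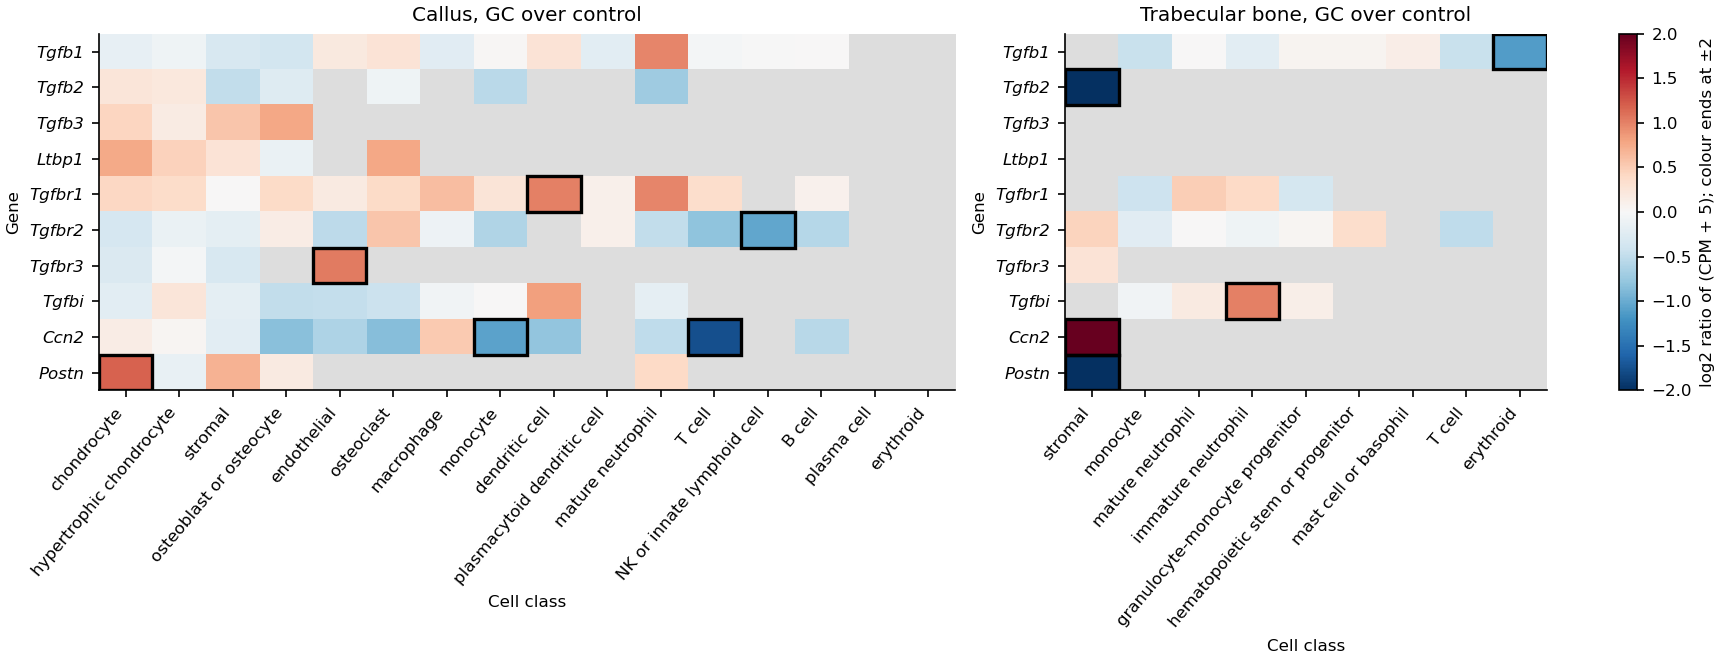
Log2 ratio of CPM + 5, GC over control, for each gene (rows) and cell class (columns) of callus and trabecular bone; grey cells held under 50 UMIs, black frames mark differences of 2-fold or more, and the colour scale ends at 2 in each direction. Tgfbr1 was higher in GC in all 13 callus classes compared, and 3 of the 5 framed trabecular pairs lie in the stromal class.

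Among the ligands, Tgfb1 differed most in mature neutrophils, at 107 CPM in control (94.5 to 121) and 216 CPM in GC (195 to 238). The log2 difference was 0.98, with a counting interval of the plain ratio from 0.78 to 1.24, and stayed just short of 2-fold. In the other 13 classes compared, the log2 difference lay between -0.37 and 0.28. Tgfb1 was lower in GC in the skeletal classes, from 133 to 119 CPM in chondrocytes, from 146 to 116 CPM in stromal cells and from 231 to 178 CPM in osteoblasts or osteocytes, where the log2 differences were -0.16, -0.33 and -0.37.

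The neutrophils of the callus fell into 3 clusters with unlike shares of the libraries: cluster 0 held 1353 control and 75 GC cells, cluster 1 held 199 and 1131, and cluster 11, led by the granule genes Ngp and Camp, held 131 and 176. Tgfb1 was at 111 CPM in control and 150 CPM in GC in cluster 0, where only 14 GC UMIs were counted and the interval held 0. It was at 120 CPM and 240 CPM in cluster 1, and at 79.1 CPM and 157 CPM in cluster 11. The higher GC level was thus read within clusters 1 and 11 as well, with log2 differences of 0.97 and 0.94. After every cell was thinned to 1000 UMIs, 9.60% of 1396 control neutrophils and 18.5% of 1009 GC neutrophils held a Tgfb1 UMI, with 287 and 373 shallower cells left out.

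Tgfb2 was higher in GC in both cartilage classes and lower in the other skeletal classes. It was at 359 CPM in control (354 to 365) and 424 CPM in GC (415 to 433) in chondrocytes, a log2 difference of 0.24, and at 307 and 356 CPM in hypertrophic chondrocytes, a difference of 0.21. In stromal cells it was at 472 CPM in control (455 to 489) and 336 CPM in GC (320 to 352), a difference of -0.48, and in osteoblasts or osteocytes at 445 and 371 CPM, a difference of -0.26. The chondrocyte clusters did not share a direction: Tgfb2 was higher in GC in cluster 3 (231 and 328 CPM) and lower in cluster 5 (471 and 347 CPM).

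Tgfb3 was higher in the GC library in all 4 classes where it could be compared, each with a counting interval above 0, and 13.6% of all genes compared in 4 classes were higher in each. It was at 50.5 CPM in control and 70.1 CPM in GC in chondrocytes, at 88.1 and 99 CPM in hypertrophic chondrocytes, and at 51.7 and 78.6 CPM in stromal cells. Osteoblasts or osteocytes were at 23.2 CPM in control (16.7 to 31.3) and 43.1 CPM in GC (32.7 to 55.7), from 42 and 58 UMIs. The log2 differences ran from 0.16 in hypertrophic chondrocytes to 0.77 in osteoblasts or osteocytes, all short of 2-fold.

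Ltbp1, which encodes the protein that tethers the latent complex, was highest in osteoblasts or osteocytes at 136 CPM over both libraries, then in stromal cells at 96.4 CPM, hypertrophic chondrocytes at 82.5 CPM, chondrocytes at 50.9 CPM and osteoclasts at 15.6 CPM. In chondrocytes it was at 40.7 CPM in control (38.9 to 42.6) and 72.5 CPM in GC (68.9 to 76.1). In hypertrophic chondrocytes it was at 69.5 CPM in control and 97.7 CPM in GC, and in stromal cells at 87.7 and 107 CPM. The log2 differences of 0.76, 0.46 and 0.27 were all positive (that of stromal cells turned to -0.12 without doublet removal), whereas osteoblasts or osteocytes, with the highest level, were at 142 CPM in control and 129 CPM in GC with overlapping intervals. Within chondrocyte clusters Ltbp1 was at 29.8 and 54.7 CPM in cluster 3, at 44.0 and 51.4 CPM in cluster 5, where the interval of the ratio held 0, and at 74.6 and 110 CPM in cluster 9.

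The receptor genes followed another order of classes, led by cells of the blood and the vessels. Tgfbr1, the type I receptor gene, was highest over both libraries in plasmacytoid dendritic cells at 487 CPM, then in osteoclasts at 318 CPM, mature neutrophils at 292 CPM, macrophages at 192 CPM and monocytes at 153 CPM. Tgfbr2, the type II receptor gene, was at 232 CPM in plasmacytoid dendritic cells, 198 CPM in T cells, 167 CPM in endothelial cells, 158 CPM in B cells and 131 CPM in the NK or innate lymphoid class, each with an interval that overlapped the next. Tgfbr3 was highest in endothelial cells at 62.1 CPM, then in stromal cells at 28.4 CPM and hypertrophic chondrocytes at 12.5 CPM.

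Tgfbr1 was higher in the GC library in all 13 callus classes where it could be compared, and its counting interval lay above 0 in 7 of them. Of 1712 genes compared in at least 13 classes, 5.14% were higher in GC in every one. After cells were thinned to 1000 UMIs the B cell value of Tgfbr1 turned to -0.09. In mature neutrophils Tgfbr1 was at 206 CPM in control (188 to 225) and 407 CPM in GC (378 to 438), a log2 difference of 0.97. In macrophages it was at 154 CPM (125 to 188) and 239 CPM (198 to 285), and in osteoclasts at 276 CPM (254 to 299) and 363 CPM (337 to 390), differences of 0.62 and 0.39. The called pair, in dendritic cells, rested on 25 control and 57 GC UMIs, at 47.1 CPM (30.5 to 69.5) and 100 CPM (75.9 to 130), and its log2 difference of 1.01 had an interval from 0.39 to 1.83. Stromal cells, at 40.1 and 40.5 CPM, and B cells, at 98.2 and 104 CPM, differed by less than their counting error.

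Within neutrophil clusters, Tgfbr1 was at 222 CPM in control and 429 CPM in GC in cluster 0, at 270 and 461 CPM in cluster 1, and at 81.8 and 235 CPM in cluster 11. All 3 clusters thus showed the higher GC level, with log2 differences of 0.93, 0.76 and 1.47. In these clusters 17.9%, 7.07% and 12.7% of all genes compared were past 2-fold. After thinning to 1000 UMIs a Tgfbr1 UMI was found in 17.6% of control and 32.6% of GC neutrophils, and in 8.86% of B cells in either library.

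**Figure D3:**
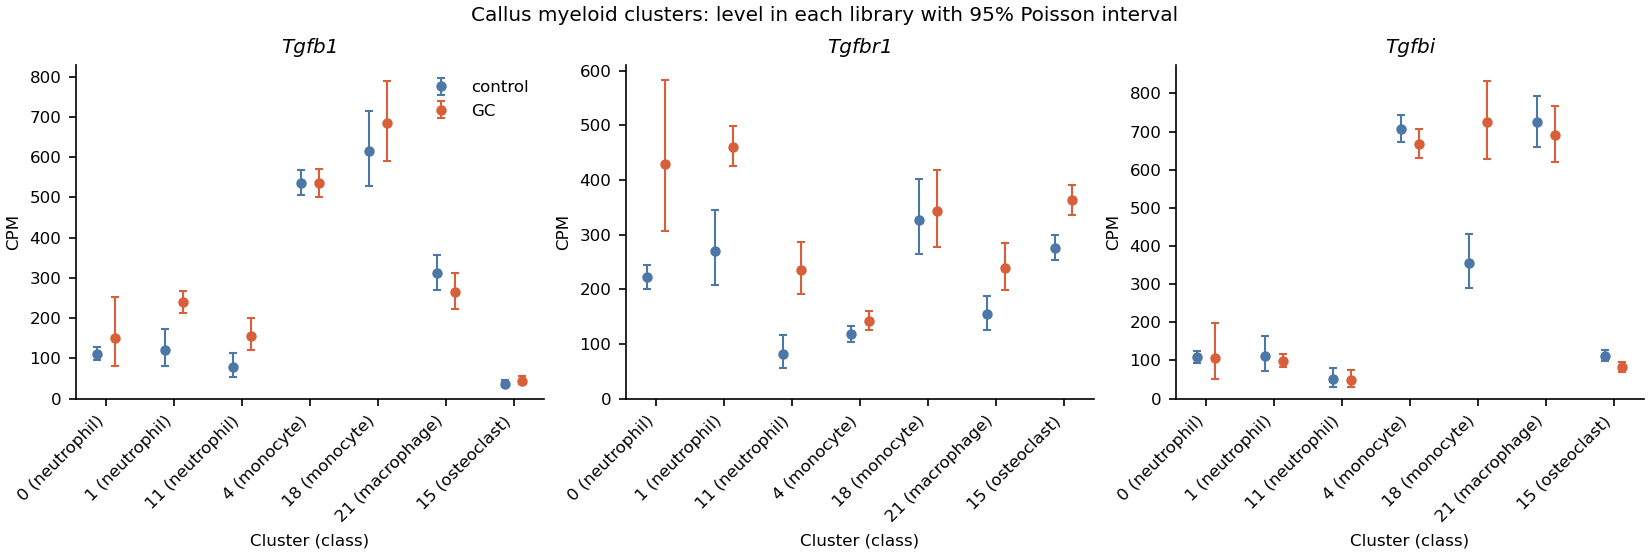
Tgfb1, Tgfbr1 and Tgfbi in CPM by callus cluster (clusters 0, 1 and 11 are neutrophils, 4 and 18 monocytes, 21 macrophages and 15 osteoclasts), control in blue and GC in orange, with 95% Poisson intervals. Tgfbr1 was higher in GC in clusters 0, 1 and 11, and Tgfbi was higher in GC in cluster 18 (356 and 725 CPM) but not in cluster 4 (707 and 667 CPM).

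Tgfbr2 went the other way in most classes. It was lower in GC in 10 of 13 classes (stromal cells turned to 0.19 without doublet removal), with an interval below 0 in 8, and of 628 genes compared in exactly 13 classes 19.7% were lower in at least 10. T cells were at 266 CPM in control (232 to 303) and 150 CPM in GC (129 to 174), a log2 difference of -0.80. The NK or innate lymphoid class was at 178 CPM (139 to 223) and 83.5 CPM (57.9 to 117), from 74 and 34 UMIs, a difference of -1.04. B cells were at 180 CPM (157 to 205) and 119 CPM (94.4 to 148), a difference of -0.58. In the lymphoid classes the GC intervals thus lay below the control intervals.

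Beside these lymphoid values, the summed level of the 12 chondrocyte markers was lower in GC too, from 3625 to 1218 CPM in T cells, from 3281 to 1376 CPM in the NK or innate lymphoid class and from 3921 to 1649 CPM in B cells. Tgfbr2 in chondrocytes themselves was at 43.8 CPM in control and 33.6 CPM in GC, under its level in each of these classes. The part of free RNA in the lymphoid differences was not tested. Osteoclasts were the class with an interval above 0: Tgfbr2 was at 70.6 CPM in control (59.7 to 82.8) and 105 CPM in GC (91.7 to 121), a log2 difference of 0.55.

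Tgfbr3, the betaglycan gene, was called in endothelial cells, from 17 control and 35 GC UMIs, at 39.4 CPM (22.9 to 63.1) and 86.1 CPM (60 to 120). Its log2 difference of 1.04 had an interval from 0.25 to 2.06. In that class the pericyte or smooth muscle markers summed to 1631 CPM in control and 539 CPM in GC and the chondrocyte markers to 2738 and 689 CPM, and their part in the result was not tested. In stromal cells Tgfbr3 was at 31.7 CPM in control and 24.4 CPM in GC, and in chondrocytes at 11.3 and 8.34 CPM.

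Of the target genes, Postn showed the clearest difference in the callus skeleton. It was highest in stromal cells, at 901 CPM over both libraries, followed by chondrocytes at 220 CPM, hypertrophic chondrocytes at 163 CPM and osteoblasts or osteocytes at 149 CPM. In chondrocytes it was at 155 CPM in control (151 to 159) and 355 CPM in GC (348 to 363), from 7071 and 7717 UMIs, a log2 difference of 1.17 with an interval from 1.15 to 1.25. In stromal cells it was at 703 CPM (683 to 724) and 1144 CPM (1116 to 1173), a difference of 0.70. Hypertrophic chondrocytes differed little and in the other direction, at 171 CPM (164 to 178) and 154 CPM (147 to 162), and osteoblasts or osteocytes were at 141 and 160 CPM with overlapping intervals.

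The chondrocyte difference was present within each of the 3 chondrocyte clusters that held many cells of both libraries. Postn was at 76.4 CPM in control and 180 CPM in GC in cluster 3 (691 and 390 cells), at 226 and 641 CPM in cluster 5 (700 and 144 cells), and at 104 and 368 CPM in cluster 9 (183 and 302 cells). The log2 differences were 1.19, 1.48 and 1.78, where 0.808%, 1.38% and 0.955% of all genes compared in the cluster were past 2-fold. Beside Col2a1, the leading genes of cluster 3 included Ibsp and Col10a1, and those of cluster 9 Ibsp, Col1a1, Col1a2 and Fn1. Ibsp and Col10a1 are also hypertrophic markers, so the chondrocyte and hypertrophic classes are not cleanly parted. Among hypertrophic clusters, the main one, cluster 2 (594 and 650 cells), was at 170 and 145 CPM, whereas the small clusters 14 and 32 were at 199 and 424 CPM and at 170 and 524 CPM. Cluster 14 had a median of 883 UMIs, and the muscle genes Ttn and Neb were among its leading genes. The hypertrophic class was therefore not of 1 direction.

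After thinning to 1000 UMIs, a Postn UMI was found in 13.4% of 1658 control and 29.3% of 1364 GC chondrocytes, and in 39.0% and 50.7% of stromal cells. The chondrocyte shares weigh each cell alike and include clusters 10 and 13, with 9 and 11 control but 360 and 234 GC cells before thinning. The part of these clusters in the shares was not tested. Without thinning the chondrocyte shares were 74.2% and 75.5%, at median depths of 26208 and 12768 UMIs. In B cells, which should lack the transcript, the thinned shares were 2.39% and 0.571% at median depths of 1917.5 and 1681 UMIs. Other immune classes took both directions at low counts: Postn was at 12.5 and 18.2 CPM in mature neutrophils (30 and 33 UMIs) and at 14.3 and 5.85 CPM in T cells (12 and 7 UMIs).

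**Figure D4:**
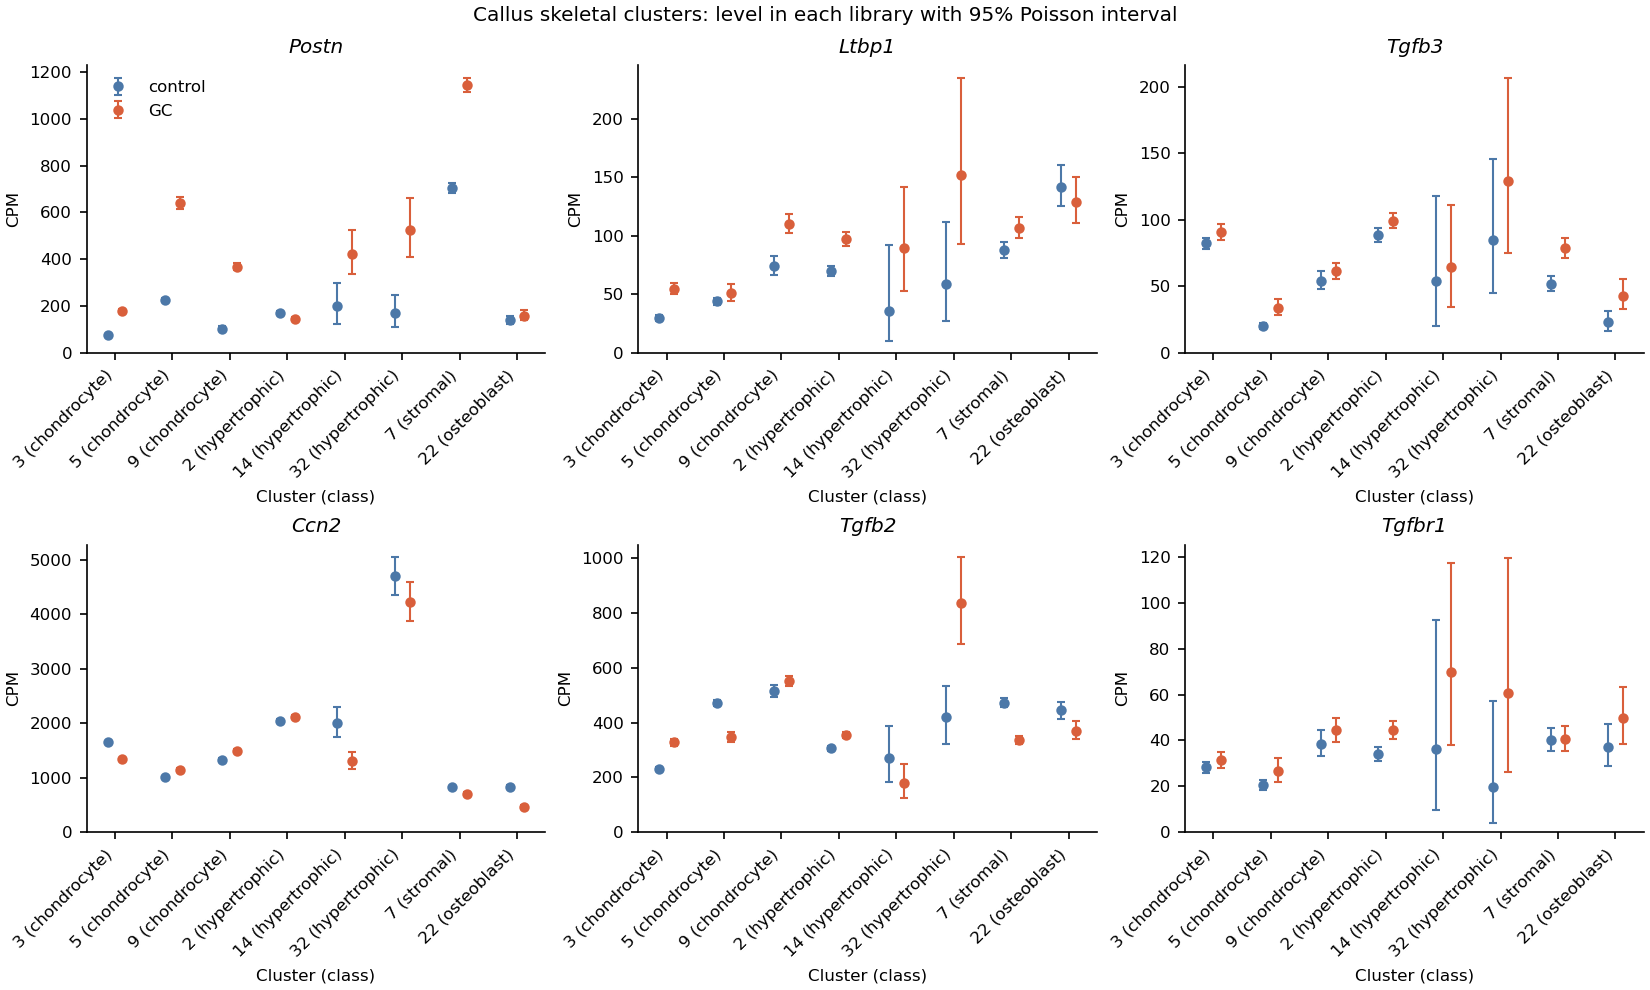
Postn, Ltbp1, Tgfb3, Ccn2, Tgfb2 and Tgfbr1 in CPM by skeletal callus cluster (3, 5 and 9 are chondrocytes, 2, 14 and 32 hypertrophic chondrocytes, 7 stromal cells and 22 osteoblasts or osteocytes), control in blue and GC in orange, with 95% Poisson intervals. Postn was higher in GC in clusters 3, 5, 9, 14, 32 and 7 and lower in cluster 2, and Ccn2 took both directions among chondrocyte clusters.

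Ccn2, the connective tissue growth factor gene, was highest in hypertrophic chondrocytes at 2101 CPM over both libraries, then in chondrocytes at 1357 CPM, stromal cells at 770 CPM, osteoblasts or osteocytes at 674 CPM and endothelial cells at 252 CPM. Hypertrophic chondrocytes were at 2076 CPM in control (2052 to 2101) and 2130 CPM in GC (2104 to 2157), a log2 difference of 0.04. Chondrocytes were at 1310 CPM (1299 to 1320) and 1457 CPM (1441 to 1473), a difference of 0.15. Stromal cells were at 821 and 708 CPM, a difference of -0.21, and osteoblasts or osteocytes at 830 CPM (788 to 873) and 465 CPM (429 to 503), a difference of -0.83.

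The small chondrocyte difference of Ccn2 depended on which cells were counted. It was lower in GC in cluster 3, at 1665 and 1347 CPM, and higher in clusters 5 and 9, at 1006 and 1143 CPM and at 1330 and 1491 CPM. Over clusters with at least 10% of their cells from each library the log2 difference of the class was 0.012, against 0.15 with all clusters, whereas that of Postn stayed at 1.17.

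In most immune classes Ccn2 was near or below its level in B cells, which was 92.6 CPM in control and 61.6 CPM in GC. T cells were at 100 CPM (79.8 to 124) and 25.9 CPM (17.6 to 36.8), a log2 difference of -1.76, and monocytes at 64.2 CPM (54.8 to 74.8) and 28.0 CPM (21.3 to 36.1), a difference of -1.07. Both pairs were called. The chondrocyte markers in the same cells summed to 3625 CPM in control and 1218 CPM in GC in T cells and to 2993 and 994 CPM in monocytes. After thinning, a Ccn2 UMI was found in 11.6% of control and 3.49% of GC T cells, in 4.36% and 3.05% of monocytes, and in 6.81% and 5.43% of B cells. The values in T cells of the GC library and in monocytes of both libraries were thus below those of B cells and are not read as expression. Control T cells lay above B cells in the share of cells. Their level, however, had an interval (79.8 to 124 CPM) that held the 92.6 CPM of control B cells. The control T cell value is therefore not read as expression either. The part of free RNA in these differences was not tested.

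Tgfbi belonged to the myeloid classes, with 709 CPM in macrophages and 671 CPM in monocytes over both libraries, intervals that overlapped, then 517 CPM in dendritic cells and 191 CPM in stromal cells. Monocytes were at 668 CPM in control (637 to 701) and 675 CPM in GC (640 to 711), and macrophages at 724 and 691 CPM, both within counting error. Dendritic cells were at 369 CPM in control (319 to 425) and 656 CPM in GC (591 to 726), a log2 difference of 0.82. The 2 monocyte clusters differed from each other: cluster 4 was at 707 and 667 CPM, and cluster 18, led by genes that include Ace and Cx3cr1, was at 356 CPM in control and 725 CPM in GC, a difference of 1.02. Osteoclasts were at 112 CPM (98.2 to 127) and 81.7 CPM (69.6 to 95.4), a difference of -0.43, and chondrocytes at 128 and 110 CPM, a difference of -0.21.

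A list of 46 further genes of the pathway (latency and activation, co-receptors and SMADs, inhibitors and feedback genes, other target genes) was read in the same classes, and all 46 were found. In callus 379 pairs of gene and class were compared, of which 19 were called (5.01%, against 2.68% over all genes), 2 higher and 17 lower in GC.

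Thbs1, which encodes thrombospondin-1, an activator of latent TGF-β, was called lower in endothelial cells (519 and 172 CPM), in osteoclasts (96.0 and 34.3 CPM) and in T cells (log2 difference -1.42). Chondrocyte markers in endothelial and T cells, and pericyte or smooth muscle markers in endothelial cells, summed above, were lower in GC too. Their part in the Thbs1 values was not tested. Lrrc32, which encodes GARP, a cell-surface anchor of latent TGF-β, was lower in 4 of 4 classes (as were 19.3% of genes compared in 4), and in chondrocytes it was at 13.1 CPM in control and 3.22 CPM in GC. The called pairs that were higher in GC were Tnc, the tenascin-C gene, in endothelial cells (23.2 and 217 CPM) and Acta2, the smooth muscle actin gene, in hypertrophic chondrocytes (15.4 and 37.0 CPM). Tnc was higher in 5 of 5 classes, as were 11.7% of genes compared in 5.

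Among the intracellular and latency genes differences were smaller. Beside each count of classes stands the share of all genes, compared in as many classes, that lay at least as often on that side. Such shares, here and for Lrrc32 and Tnc, were worked out for part of the list only. Furin (higher in 12 of 14 classes), Itgb1 (higher in 13 of 15) and Emilin1 (lower in 6 of 6) have none. A share describes its gene and does not allow for the choice among the genes of the list. Ltbp3 was lower in 7 of 7 classes (6.78%) and Ltbp2 higher in 3 of 3 (20.4%), without a called pair. Smad2 was higher in 9 of 10 classes (9.57%) and Smad4 in 12 of 13 (7.8%). Smad3 was lower in 6 of 7 (19.8%) and Skil, whose product SnoN represses SMAD-driven transcription, in 12 of 15 (28.8%). Mature neutrophils held called pairs for Cdkn1a, the p21 cell cycle inhibitor gene (477 and 152 CPM), Bambi, a pseudoreceptor gene (log2 difference -1.31), and Ccn1 (-1.30). Also lower in GC by 2-fold or more were Ccn1 in monocytes (-1.17), Nrros in B cells (-1.03), Tsc22d1 in T cells (-1.27) and Fn1 in plasma cells (-1.01) and plasmacytoid dendritic cells (-1.08). Chondrocyte markers, summed above for monocytes, B cells and T cells, were lower in GC in those classes too. The part of free RNA in these lower values of immune classes was not tested.

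Genes whose level over the callus classes was most like that of each member were named from 32 points, 16 classes in 2 libraries, among 7668 genes. Points of 1 library share depth and background, so these values are a description. Nearest to Tgfb1 was Stat3 (Pearson r 0.901), to Tgfb2 Srpx2 (0.977), to Tgfb3 Tnfrsf11b (0.920) and to Ltbp1 Ube2ql1 (0.948). Nearest to Tgfbr1 was Rilpl2 (0.895), to Tgfbr2 Dock8 (0.892) and to Tgfbr3 Rhoj (0.864). Nearest to Tgfbi was Met (0.930), to Ccn2 Prkg1 (0.962) and to Postn Col6a3 (0.958). The next nearest were Clcf1 and Zswim8 for Tgfb1, Wnt5b and Alpl for Tgfb2, R3hdml and Ccdc80 for Tgfb3, Dlx5 and Slc8a3 for Ltbp1, Tcirg1 and Inf2 for Tgfbr1, Sik1 and Zyg11b for Tgfbr2, Cxcl12 and Kctd17 for Tgfbr3, Itga5 and Pid1 for Tgfbi, Foxc1 and Cox4i2 for Ccn2, and Irs1 and Cacna2d1 for Postn.

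In trabecular bone most cells were haematopoietic, and 27 of 90 pairs could be compared. Of these, 5 were called (18.5%, against 2.73% of 47909 pairs over all genes), 2 higher and 3 lower in GC, with a median log2 difference of 0.01. Without the cell with most UMIs in each library, Postn and Tgfb2 in stromal cells fell under the UMI minimum for a comparison. Tgfbi in immature neutrophils rested on a cluster found almost entirely in the GC library. The shares of 18.5% and 2.73% are therefore not read as a difference between the members and all genes. In the stromal class 3 of 5 genes were called, where 15.4% of all genes compared were. The other called pairs were Tgfb1 in erythroid cells (1 of 1 gene, background 6.36%) and Tgfbi in immature neutrophils (1 of 4, background 0.575%). None was called of 4 genes in mature neutrophils (3.41%), monocytes (0.762%) or granulocyte-monocyte progenitors (0.3%), of 2 in T cells (6.05%) or haematopoietic stem or progenitor cells (1.9%), or of 1 in mast cells or basophils (3.8%).

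Tgfb1 in trabecular bone was highest in haematopoietic stem or progenitor cells, at 327 CPM in control (279 to 382) and 338 CPM in GC (297 to 383). Monocytes were at 263 CPM (247 to 279) and 192 CPM (178 to 206), a log2 difference of -0.44, and granulocyte-monocyte progenitors at 193 and 200 CPM. Mature neutrophils were at 29.8 and 30.1 CPM, in contrast to the higher GC level in callus neutrophils. The median over all genes in the trabecular class was itself at 0.25, and most of its clusters were nearly all of 1 library. The difference between the tissues was not tested. Erythroid cells were at 58.5 CPM (50.6 to 67.2) and 24.2 CPM (19.7 to 29.4), a difference of -1.12, where the median over all genes was itself at -0.61.

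Among the haematopoietic classes compared in trabecular bone, Tgfbr1 was highest in monocytes, at 41.3 CPM over both libraries, with an interval that overlapped the next. Tgfbr1 was at 47.9 CPM in control and 34.7 CPM in GC in monocytes, at 23.0 and 34.2 CPM in mature neutrophils and at 16.8 and 23.7 CPM in immature neutrophils. Its log2 difference was 0.48 in mature neutrophils, where the median over all genes was at 0.25, and -0.42 in monocytes. Tgfbr2 was highest in stromal cells (168 and 229 CPM) and T cells (127 and 88.1 CPM), both with intervals of the ratio that held 0, and Tgfbr3 could be compared only in stromal cells, at 240 and 289 CPM.

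Tgfbi was again a gene of monocytes, at 600 CPM in control (575 to 625) and 572 CPM in GC (548 to 597), and of mature neutrophils, at 244 and 277 CPM. Mature neutrophil clusters were mostly of 1 library each. In the 3 that held at least 20 cells of both libraries, Tgfbi was at 271 and 445 CPM in cluster 2 (748 control and 49 GC cells), at 136 and 221 CPM in cluster 3 (516 and 111 cells) and at 393 and 419 CPM in cluster 6 (507 and 21 cells). In immature neutrophils it was at 17.0 CPM (14.4 to 20.0) and 39.2 CPM (35.2 to 43.5), a log2 difference of 1.0. That class held cluster 10, with 5 control and 330 GC cells. Over clusters with at least 10% of their cells from each library the difference was 0.14, so it rested on a cluster found almost entirely in the GC library.

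The trabecular stromal class held 17 control and 45 GC cells, and its values rested on few of them. Postn was at 656 CPM in control and 74.1 CPM in GC, from 82 and 21 UMIs, but 74 of the 82 lay in 1 control cell and 16 of the 21 in 1 GC cell, and 5 cells held a UMI in each library. Tgfb2 was at 272 and 63.5 CPM, from 34 and 18 UMIs, with 17 in 1 control cell. Ccn2 was at 79.9 CPM in control (38.3 to 147) and 582 CPM in GC (497 to 678), from 10 and 165 UMIs, with 55 in 1 GC cell, and was found in 7 of 17 and 16 of 45 cells.

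Without the cell with most UMIs in each library, the log2 difference went from -3.06 to -1.73 for Postn, from -2.01 to -1.52 for Tgfb2 and from 2.79 to 2.41 for Ccn2, at 71.3 and 400 CPM. Postn then held 8 control and 5 GC UMIs and Tgfb2 held 17 and 13, each under the minimum of 50 for a comparison. Of the pathway list, Fn1, the fibronectin gene (1351 and 342 CPM), and Fbn1, the fibrillin-1 gene (943 and 198 CPM), were called lower and Thbs1 (128 and 469 CPM) higher in this class. Tagln and Acta2, genes of contractile cells, were also called, but 170 of 172 and 223 of 228 GC UMIs were in 1 cell. In the same cells the stromal markers summed to 28621 CPM in control and 17526 CPM in GC, the mature neutrophil markers to 2550 and 25232 CPM and the erythroid markers to 1575 and 20223 CPM. The part of these in the differences was not tested.

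**Figure D5:**
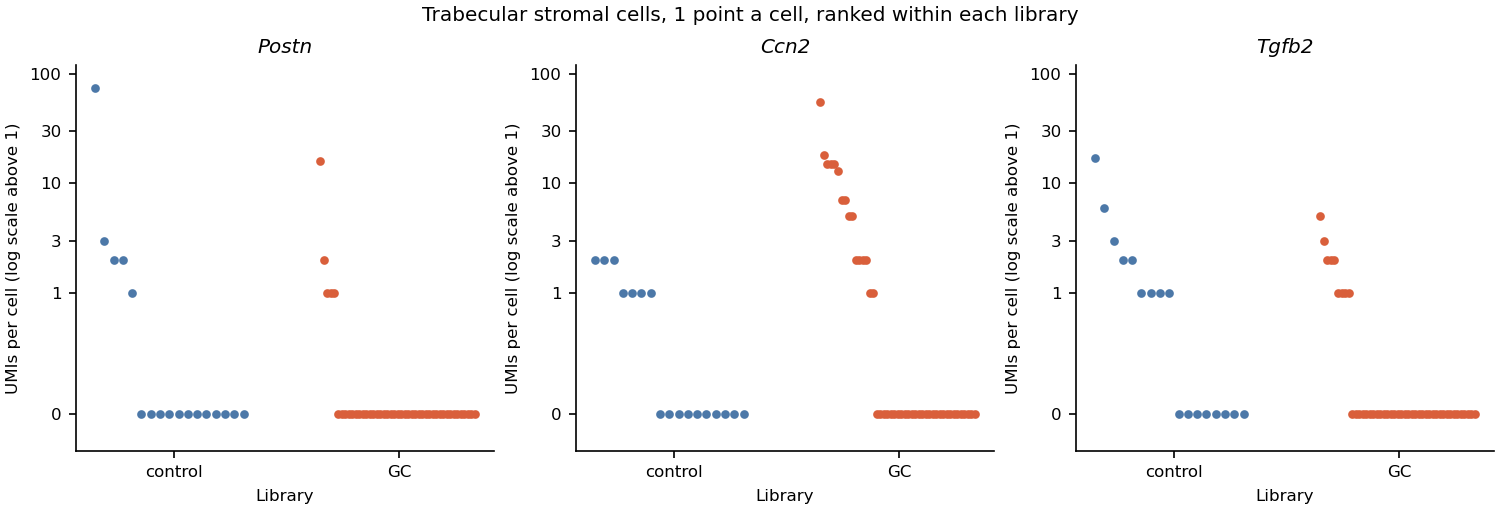
UMIs of Postn, Ccn2 and Tgfb2 in each trabecular stromal cell, 1 point a cell, ranked within its library (17 control and 45 GC cells), on an axis that is logarithmic above 1. A single control cell held 74 of 82 Postn UMIs, whereas the Ccn2 UMIs of the GC library were spread over 16 cells.

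Of the pathway list in trabecular bone, 15 of 150 pairs were called (10%, against 2.73% over all genes), 5 higher and 10 lower in GC. Of the 15, 6 lay in the stromal class, where 15.4% of all genes were called, and 3 in erythroid cells, where 6.36% were and the median over all genes was at -0.61. Smad4 was at 52.7 CPM in control and 132 CPM in GC in mature neutrophils and Itgb1, an integrin subunit gene, at 7.06 and 21.0 CPM, beside the shift of all genes in that class. Cdkn1a was at 100 and 40.5 CPM in immature neutrophils. The called pairs of T cells were Itgav (log2 difference -1.71), Cdkn1a (-1.37) and Pmepa1 (-1.08), those of erythroid cells Furin (-1.67), Thbs1 (-1.16) and Cdkn1a (-1.10), and Pmepa1 was also lower in stromal cells (552 and 240 CPM). The feedback genes Smad7 and Skil were lower in GC in 7 of 7 and 9 of 9 classes, without a called pair, as were 1.63% and 0.994% of all genes compared in as many classes. Such shares were worked out in this tissue for Smad7 and Skil alone. They do not allow for the choice of these genes from the list. Erythroid cells, with the shift of all genes above, are among the 9 classes.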

How the data were processed

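Counts of UMIs per gene and barcode were used as the authors deposited them. Per the labels, marrow plugs were flushed, bone was crushed and digested with Collagenase II, Dispase II and DNase I, and libraries were made with the 10x Genomics Kit v2. The submitters' processing notes name Cell Ranger 5.0.1, Seurat 3.2.0 and mm10, whereas the matrix headers name Cell Ranger version 4. No deposited count was changed, and no cell annotation was used.

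In the 3 libraries with all barcodes, cells were called here against the profile of barcodes ranked 45001 to 90000 (10000 simulations, FDR 0.01, at least 500 UMIs), with barcodes over 10% of the 99th percentile of the top 3000 always kept. Cells under 200 genes or over 10% mitochondrial UMIs were removed, as were simulated-neighbour doublets at 0.8% per 1000 cells (123 to 428 a library). Each tissue was clustered (2000 variable genes without the members and pathway genes, 30 components, 15 neighbours, Leiden resolution 1), and clusters of at least 60 cells that stayed unnamed or carried markers of another lineage were divided again at 0.5. A cluster was named when at least 3 markers of a list were raised 2-fold and found in at least 10% of its cells and its 10 leading genes did not go against the name. The naming rule was revised after clusters had been seen, and names may differ from those of the study. Cluster 4 of the callus monocytes was led by Lyz2 and Chil3, which immature neutrophils also express.

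UMIs were summed per class and library, as CPM with exact Poisson intervals. Differences are log2((CPM GC + 5)/(CPM control + 5)) for genes with at least 50 UMIs over both libraries, and intervals of the plain ratio are exact conditional ones. The pseudocount understates changes of low genes. Shares of cells after thinning to 1000 UMIs have exact binomial errors. No test was run, since each condition had 1 library and cells are not replicates. The steps were tested on simulated data with known ratios. Every member was named, with the pathway genes past 2-fold (up to the 6 largest a class) and the 3 genes most alike in Pearson correlation of log2(CPM + 5). Values of 1 gene of the pathway list are not reported here. Members and lists were chosen with earlier results of these data known. Scripts ran under Python 3.11.15 with leidenalg 0.10.2 and igraph 0.11.9 for clustering, scikit-learn 1.9.0 for components and neighbours, scipy 1.17.1 for intervals, pandas 2.3.3 and numpy 2.4.6 for tables and matplotlib 3.10.9 for plots. Alternatives covered the pseudocount, the UMI minimum, cell filters, cell calling, doublets, clustering, depth, centring and free RNA.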

Additional observations from a re-analysis of the deposited data

Results flagged for a closer look

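The difference between GC and control took opposite directions in the stromal classes of the 2 tissues for 2 target genes. Ccn2 had a log2 difference of -0.21 in callus stromal cells (821 and 708 CPM) and of 2.79 in trabecular stromal cells (79.9 and 582 CPM). Postn had a log2 difference of 0.70 in callus stromal cells (703 and 1144 CPM) and of -3.06 in trabecular stromal cells (656 and 74.1 CPM). With 1 library a condition, the difference between the tissues was not tested. The classes are not alike: beside collagen genes found in both, the leading genes included Aspn, Col12a1 and Postn itself in callus. In trabecular bone they included Gpx3, Igfbp6 and Myoc. The neutrophil and erythroid markers in trabecular stromal cells also summed higher in GC, as given above. The trabecular values rest on 17 control and 45 GC cells. Without the cell with most UMIs in each library they were 2.41 for Ccn2 and -1.73 for Postn, the same directions. The Postn value then rested on 8 control and 5 GC UMIs, under the minimum of 50 set for a comparison. Without cells that held a UMI of the pericyte or smooth muscle markers (4 control and 9 GC cells) they were 2.92 and -5.95, the latter because the GC cell with most Postn UMIs was left out while the control cell was kept.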

How the results depend on the processing

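Alternatives were compared for Ccn2 in callus chondrocytes (log2 difference 0.15), Postn in callus stromal cells (0.70), Tgfb1 in callus mature neutrophils (0.98), Tgfbi in monocytes, and the counts of called pairs (6 in callus and 5 in trabecular bone for the members, 19 and 15 for the pathway list). Not all of these values kept their sign. Tgfbi in callus monocytes was at 0.01, under the median over all genes of that class at 0.04. It therefore turned negative when centred on the median gene. For Ccn2 the value was 0.21 with at most 5% mitochondrial UMIs, 0.23 with at least 500 genes a cell, 0.21 without doublet removal, 0.29 with cells called by 1000 UMIs, 0.27 at a resolution of 1.5, 0.19 with members and pathway genes kept for clustering, 0.49 after thinning, 0.49 as a mean over cells, and 0.20 with free RNA at the B cell level taken off. Over clusters with at least 10% of cells from each library, chosen after seeing the data, it was 0.012. For Postn the value was 0.80 with 500 genes, 0.63 without doublet removal, 0.63 with cells called by 1000 UMIs, 0.62 and 0.76 at resolutions of 0.6 and 1.5, 0.87 with members kept, 0.59 after thinning and 0.58 as a mean over cells. With the B cell level taken off, Tgfb1 in neutrophils gave 0.0, since B cells hold more Tgfb1 than neutrophils do; that setting was not run for trabecular bone, where no GC cell was named B cell. Tgfbi in trabecular monocytes was at -0.07, at -0.49 after thinning and at -0.23 as a mean over cells.

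The member pairs called in callus became 2 with a pseudocount of 20, 10 with at least 20 UMIs, 23 with no minimum, 2 with at least 200 UMIs, 10 without doublet removal and 10 with free RNA taken off. With the B cell level taken off as free RNA, only 3 of the 6 pairs called before stayed called, and 7 were newly called. In trabecular bone they became 3 with a pseudocount of 20, 2 with 200 UMIs, 2 with 5% mitochondrial UMIs, 1 with 500 genes, 2 with cells called by 1000 UMIs, 1 after thinning and 3 when centred on the median gene. The pathway pairs in callus became 8 with a pseudocount of 20, 30 with 20 UMIs, 80 with no minimum, 6 with 200 UMIs, 9 after thinning and 52 with free RNA taken off. Those in trabecular bone became 24 with 20 UMIs, 31 with no minimum, 7 with 200 UMIs, 8 with 500 genes, 9 with cells called by 1000 UMIs and 3 after thinning. A UMI minimum changes which genes are compared, and the cause of the other moves was not tested. Of the single ratios, 104 of 108 kept their sign at a resolution of 1.5 and 101 of 109 without doublet removal. As a mean over cells 97 of 109 did, and with at most 5% mitochondrial UMIs 76 of 87. After thinning to 1000 UMIs 44 of 53 did, and 24 of 53 lay within the counting interval of the main value. With free RNA taken off 46 of 79 kept their sign. In that last setting, levels under that of B cells were cut off. B cells held Tgfbr1 at 100 CPM and Tgfbr2 at 158 CPM over both libraries. For these genes the setting cannot tell free RNA from transcripts of the B cells themselves. Tgfbr2 in the NK or innate lymphoid class and Tgfbr1 in dendritic cells, called in the main setting, lay under the B cell level in both libraries. Pairs cut off in both libraries had no difference left and counted as not keeping their sign, so not all of the rest were reversed. No paired analysis was possible because each group had 1 library, and for the same reason no replicate could be left out. Depth limits the classes of few cells most: the called pairs of Tgfbr1 in dendritic cells and Tgfbr3 in endothelial cells rested on 82 and 52 UMIs over both libraries.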

Other observations

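Cells of the callus that could not be named also held the target genes. In cluster 16 (3 control and 218 GC cells), whose leading genes mix Col1a1 and Col10a1, Ccn2 was at 2323 CPM and Postn at 449 CPM. In cluster 24 (1 control and 96 GC cells), led by genes that include Ibsp, Col1a1 and Cxcl12, Ccn2 was at 939 CPM and Postn at 241 CPM. In cluster 17 (0 control and 218 GC cells), led by both Ngp and Camp of neutrophils and matrix genes such as Serpinh1, Ccn2 was at 2019 CPM and Postn at 459 CPM. Clusters found almost only in the GC library have no control to set them against.

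Summed over all kept cells of a callus library, Postn was at 179 CPM in control and 319 CPM in GC, Ltbp1 at 45.8 and 72.3 CPM and Tgfbr1 at 48.8 and 75.8 CPM, while Ccn2 was at 1191 and 1241 CPM and Tgfb1 at 176 CPM in both. In trabecular bone the same sums were 121 and 95.4 CPM for Tgfb1 and 150 and 156 CPM for Tgfbi. These sums mix the make-up of the cells with the level in each class.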
